A study of Mus musculus with 4 samples.

Results

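Nuclear receptors are transcription factors that bind small fat-soluble ligands such as fatty acids, oxysterols, bile acids, retinoids and steroid or thyroid hormones, and in the liver they set much of lipid, bile acid, glucose and drug metabolism. Many of them bind DNA as heterodimers with a retinoid X receptor, and they act through coactivators and corepressors. The abundance of 38 nuclear receptor genes was examined in fatty liver of aP2-SREBP-1c mice. The genes were taken from a list of family members, each through the probe sets annotated to that gene symbol alone, and 37 of the 38 were measured among 19938 named genes. Nr1h2, which encodes the oxysterol receptor LXR beta, had no such probe set here. Each of the 37 receptors was represented by 1 probe set.

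Liver RNA came from 4 male aP2-SREBP-1c mice of 24 weeks, 1 Mouse Gene 1.0 ST array per mouse, numbered mice 1 to 4. These C57Bl6 mice carry a transgene for the active amino-terminal part of human SREBP-1c with a hemagglutinin tag, driven by the adipocyte promoter aP2. The transgene acts in fat tissue and not in liver, the mice lack normal adipose tissue, and lipid reaches the liver from the circulation. From 6 weeks of age they had free access to chow with 11% fat, 53% carbohydrate and 36% protein, and they were killed at 7 am. No other group was analysed here, so that levels and the spread between mice are given without fold changes between phenotypes and without tests between groups. Values are log2 expression values computed by RMA. Probes differ in how strongly they bind, and therefore levels of different receptors are not ranked against each other.

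The background was read from 1035 probe sets for olfactory receptors (Olfr), genes that are not known to be transcribed in liver. Their 95th percentile came to 5.56, 5.41, 5.40 and 5.37 in mice 1 to 4, and genes over this limit on all 4 arrays are termed above background. By this rule 29 of the Olfr probe sets (2.80%) were themselves above background. The 11 measured hepatocyte markers, among them the hemopexin gene Hpx, all exceeded the limit, with a median SD of 0.056 between mice. Of the markers of other cells, 13 of 13 endothelial, 2 of 7 biliary and 4 of 12 lymphocyte genes did so. Mouse 1 had a narrower span of values than the others. Each mouse was compared with the average of the remaining 3, and over all genes above background the median of this difference was -0.087, 0.026, 0.054 and 0.016 for mice 1 to 4. When these genes were divided into 10 classes by mean expression, the median for mouse 1 was 0.13 in the lowest class and -0.23 in the highest.

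Of the 37 measured receptors, 30 (81.1%) were above background, compared with 60.4% of all named genes. The fatty acid receptors, the xenobiotic receptors and the retinoid receptors were above background without exception, as were the measured oxysterol and bile acid receptors. Another 5 receptors, Vdr, Hnf4g, Nr2f1, Esrrb and Nr4a3, were below the limit on every array. Nr4a1 exceeded it in mouse 2 only and Nr4a2 in mice 2 and 3. Between mice, the receptors had a median SD of 0.13 on the log2 scale, beside 0.15 over all genes above background.

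**Figure D1:**
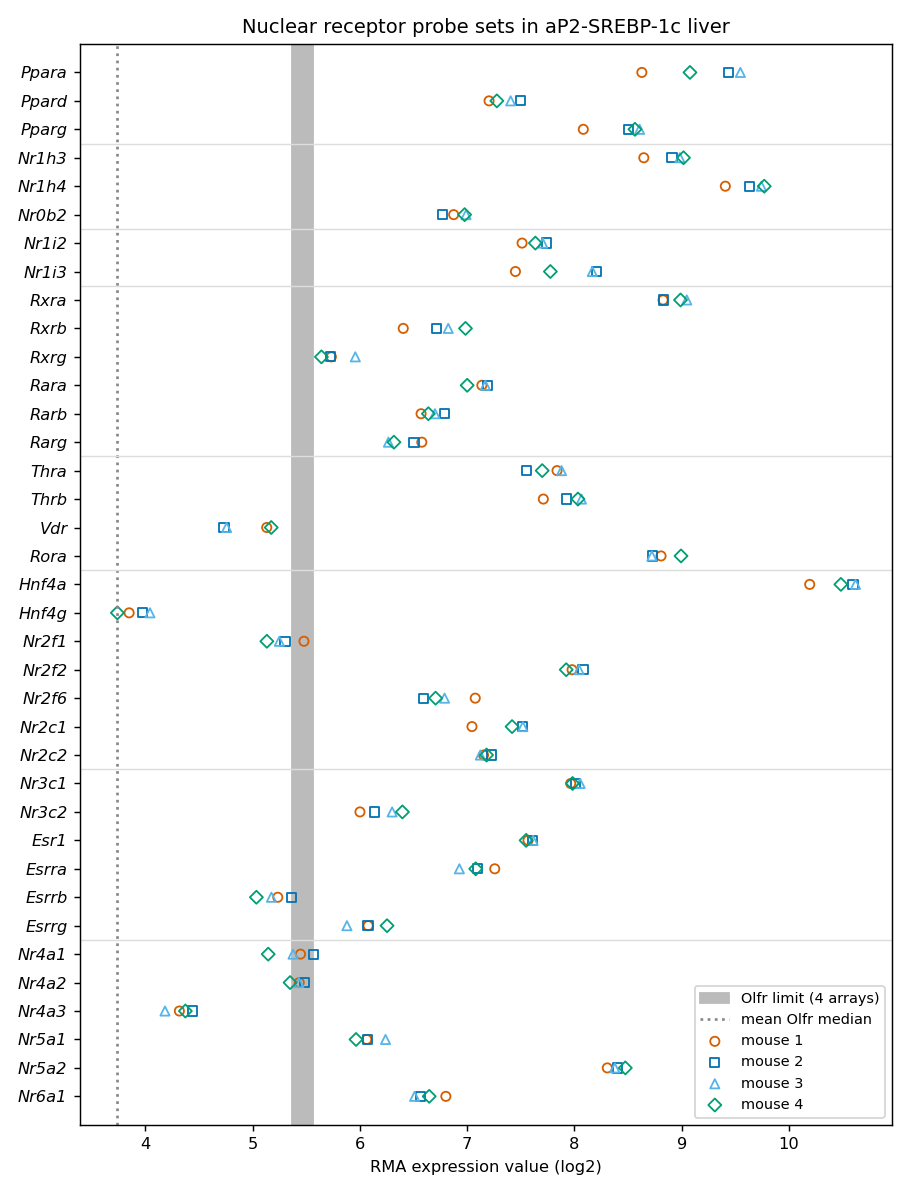
RMA expression values (log2) of the 37 measured nuclear receptors in the livers of mice 1 to 4, with symbols for mice and thin lines between receptor groups. The grey band spans the Olfr limits of the 4 arrays (5.37 to 5.56) and the dotted line is the mean of their Olfr medians. All symbols of 30 receptors lie to the right of the band, and Hnf4g lies near the Olfr median.

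The receptor that differed most between the mice was Ppara, the fatty acid receptor that drives fatty acid oxidation and ketone body synthesis in hepatocytes. Ppara (probe set 10425987) was measured at 8.63, 9.44, 9.55 and 9.08 in mice 1 to 4, which was lowest in mouse 1 and next lowest in mouse 4. This 1.89-fold range corresponded to an SD of 0.41 around a mean of 9.17, and 1.74% of all genes above background had an SD at least as large. Nr1i3, the constitutive androstane receptor CAR that senses drugs and bile pigments, followed with 7.45, 8.20, 8.17 and 7.78, a mean of 7.90 ± 0.36 (SD, n = 4 mice) and a 1.69-fold range. The lowest value was again that of mouse 1, followed by mouse 4. Markers of pancreatic acinar cells were highest in these same mice, with median levels of 8.04, 6.07, 6.53 and 7.83 in mice 1 to 4, and their part in the values of Ppara, Nr1i3 and the targets described below was not tested.

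A range over 1.5-fold was found for 2 of the 30 receptors (6.67%), Ppara and Nr1i3. Over all 12036 genes above background this share was 12.8%. A few receptors more or less would change the share among 30, so no difference is read from it. The limit of 1.5-fold is 0.585 on the log2 scale. Rxrb, with a range of 0.580, lay just inside it. Without mouse 1, neither Ppara (1.39-fold) nor Nr1i3 (1.35-fold) exceeded the limit, and the share over all genes dropped to 2.65%. With any of the other mice left out, both exceeded it.

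The difference of mouse 1 was set beside that of genes of like level, given the narrower span of its array. For Ppara this difference in mouse 1 was -0.73, where the median of the 1203 genes in its expression class was -0.22 and 2.24% of them were at or below Ppara. Nr1i3 had a difference of -0.60, with a class median of -0.21 and 5.32% of its class at or below it. Both receptors were picked for wide ranges in which mouse 1 was lowest, so that these shares partly follow from that choice. After quantile normalization of the 4 arrays, Ppara was at 8.77, 9.42, 9.46 and 9.03 and Nr1i3 at 7.55, 8.19, 8.10 and 7.73. Ranges of 1.61-fold and 1.57-fold remained, and mouse 1 was still lowest for both. In RNA of whole liver, fewer cells of a type and less RNA per cell cannot be told apart.

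**Figure D2:**
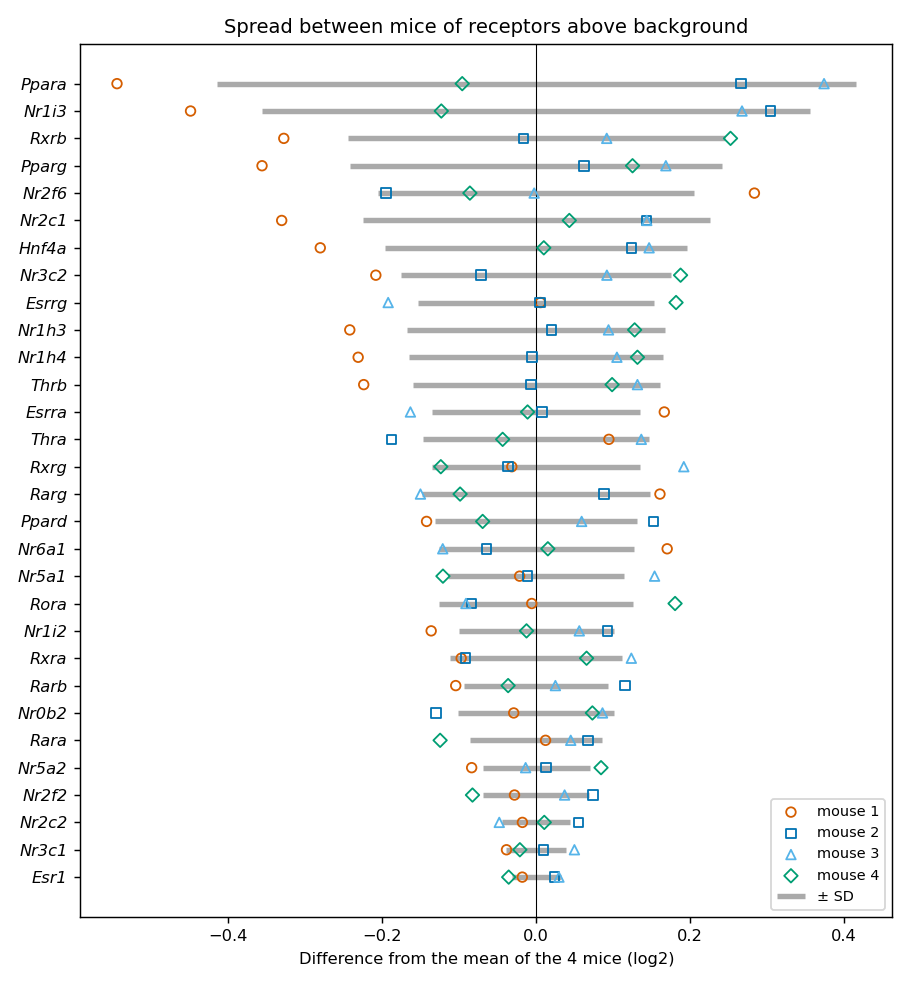
Difference of each mouse from the mean of the 4 mice (log2) for the 30 receptors above background, ordered by range. Symbols stand for mice and grey bars for ± SD. Mouse 1 lies far to the left for Ppara and Nr1i3 and to the right for Nr2f6, and the symbols of Esr1, Nr3c1 and Nr2c2 nearly coincide.

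The sequence before the transcription start is shown for these 2 receptors, since they had the widest ranges. Promoters came from a set built on RefSeq (GRCm38.p6), and the set used here held 54 promoters for 34 of the 38 receptors. The 250 bases before the start are given on the strand of the gene, with CG dinucleotides in capitals. Only these dinucleotides are marked, because DNA methylation acts on them. No methylation was measured in these samples.
Ppara, chr15:85735526-85735775, plus strand: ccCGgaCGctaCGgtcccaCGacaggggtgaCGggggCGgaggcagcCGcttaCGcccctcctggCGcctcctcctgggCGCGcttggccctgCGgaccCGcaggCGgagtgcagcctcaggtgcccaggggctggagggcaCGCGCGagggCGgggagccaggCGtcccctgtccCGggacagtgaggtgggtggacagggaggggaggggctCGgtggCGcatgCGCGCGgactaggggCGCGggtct
Nr1i3, chr1:171213720-171213969, plus strand: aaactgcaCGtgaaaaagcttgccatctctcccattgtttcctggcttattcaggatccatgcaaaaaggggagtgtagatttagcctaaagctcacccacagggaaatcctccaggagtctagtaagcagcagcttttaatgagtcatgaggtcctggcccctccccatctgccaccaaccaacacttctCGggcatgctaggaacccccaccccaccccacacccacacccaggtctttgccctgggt

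The 2 promoters differ in kind. That of Ppara has 76.4% G and C and 27 CG dinucleotides, a number that 8.56% of all 32851 promoters reach. That of Nr1i3 has 53.2% G and C and 2 CG dinucleotides, below the median of 6 over all promoters. The median of the 54 receptor promoters was 60.2% G and C with 10.5 CG dinucleotides, compared with 52.4% G and C over all promoters.

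Motifs were searched on both strands of these 250 bases. The core motif of nuclear receptors, AGGTCA, occurred in promoters of 8 receptors, namely Pparg, Nr1h4, Rxra, Rxrg, Rarg, Thrb, Nr5a2 and Nr6a1. It was held by 16.7% of the receptor promoters and by 14% of all promoters. The E-box CACGTG, which clock proteins bind, occurred in promoters of Nr1i3, Nr0b2, Rara and Thrb (7.41% of receptor promoters and 6.02% of all). In Nr1i3 its first base lay 244 bases before the start, and the promoter of Ppara held neither motif. The cyclic AMP response element TGACGTCA and the NR5A site TCAAGGTCA, which contains this core motif, were found in none of the receptor promoters, and in 1.55% and 0.387% of all promoters. Such a match is a stretch of letters and not a measured binding site.

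The other fatty acid receptors varied less than Ppara. Pparg, the master regulator of adipocyte differentiation, was clearly above background in these livers with 8.08, 8.50, 8.61 and 8.56, a mean of 8.44 ± 0.24 (SD, n = 4). It was 3.00 above the Olfr limit on average, and no Olfr probe set had so high a mean. Mice 2 to 4 lay within 0.11 of each other, and mouse 1 was lower by a difference of -0.47 from their mean. After quantile normalization the range of Pparg narrowed from 1.44-fold to 1.26-fold. Of 8 measured adipocyte markers 5 were above background, and Adipoq, Lep and Plin1 were not, although Plin1 exceeded the limit on 3 arrays. Ppard, the fatty acid receptor of most tissues, was measured at 7.20, 7.50, 7.40 and 7.28 (mean 7.35 ± 0.13, SD, n = 4).

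Genes known to be controlled by these receptors were listed from general knowledge, with earlier results of these data already known. Of 22 measured PPARalpha targets, 21 were above background, 18 of these were lower in mouse 1 than on average in the others, and 8 exceeded the 1.5-fold range. Over all genes above background, 63.0% were lower in mouse 1. Acot2, a mitochondrial acyl-CoA thioesterase, was at 8.04, 9.62, 9.56 and 8.38, low in mice 1 and 4 as Ppara was. Pdk4, the kinase that restrains pyruvate oxidation, was at 7.83, 8.75, 8.84 and 8.52, and the fatty acid hydroxylase Cyp4a14 at 9.46, 9.89, 10.06 and 9.85. In contrast, Creb3l3 had a range of 1.12-fold. The median difference of these targets in mouse 1 was -0.35, and -0.18 after quantile normalization, where 5 genes exceeded the range. Of all genes above background 10.5% then exceeded it. In the deposited values 16 of 17 HNF4alpha targets and 12 of 13 LXR targets were also lower in mouse 1. Such a share was therefore not particular to PPARalpha targets. After quantile normalization 18 of 21 PPARalpha, 10 of 17 HNF4alpha and 8 of 13 LXR targets were lower in mouse 1. So were 6 of 7 PPARgamma targets and 13 of 16 of the coactivators described below. A high share was thus not particular to PPARalpha targets under this scaling either. Over all genes this share was 53.4%.

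Of 11 measured PPARgamma targets, 7 were above background and 6 of these were lower in mouse 1. The lipid droplet protein Cidea was at 8.93, 10.33, 10.32 and 9.85 and the related Cidec at 8.39, 8.98, 9.02 and 8.73, with mouse 1 lowest in both. Lpl, lipoprotein lipase, and Cd36, a fatty acid transporter, also exceeded the 1.5-fold range. Fabp4, a fatty acid binding protein of adipocytes, did not (1.07-fold). The median difference of this list in mouse 1 was -0.53, and -0.35 after quantile normalization, where 2 genes exceeded the range. Markers of cell types differed in direction in mouse 1. Of 12 stellate cell markers above background 8 were lower in this mouse, with a median difference of -0.28, and of 13 macrophage markers 9, with -0.21, shares close to the 63.0% of all genes. Of 13 endothelial markers 11 were lower, with -0.18, and of 11 hepatocyte markers 10, with -0.087. Of 4 lymphocyte markers 1 was lower, with a median difference of 0.067, and of 14 pancreatic acinar markers 0, with 1.24. After quantile normalization these medians were -0.20 for stellate cells, -0.10 for macrophages, -0.065 for endothelium and 0 for hepatocytes. Their part in the values of the receptors was not tested.

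For the xenobiotic receptors, 13 of 16 measured targets were above background and 3 exceeded the 1.5-fold range, namely Gstm3, Abcc3 and Slco1a4. With quantile normalization 1 gene did so. Of the 13 genes, 10 were lower in mouse 1 than on average in the others, and 9 were after quantile normalization. Over all genes these shares were 63.0% and 53.4%. Slco1a4, an organic anion transporter with the largest SD of this list, was at 6.18, 7.20, 7.68 and 6.97, again lowest in mouse 1. The classical target of CAR, Cyp2b10, was at 6.38, 6.31, 6.37 and 6.52 and did not follow the order of Nr1i3 across the mice. Nr1i2, the drug and steroid receptor PXR, was measured at 7.51, 7.74, 7.70 and 7.64 (mean 7.65 ± 0.10, SD, n = 4). Its target Cyp3a11 was at 12.97, 13.14, 13.13 and 13.21. Cyp3a11 had a range of 1.18-fold.

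**Figure D3:**
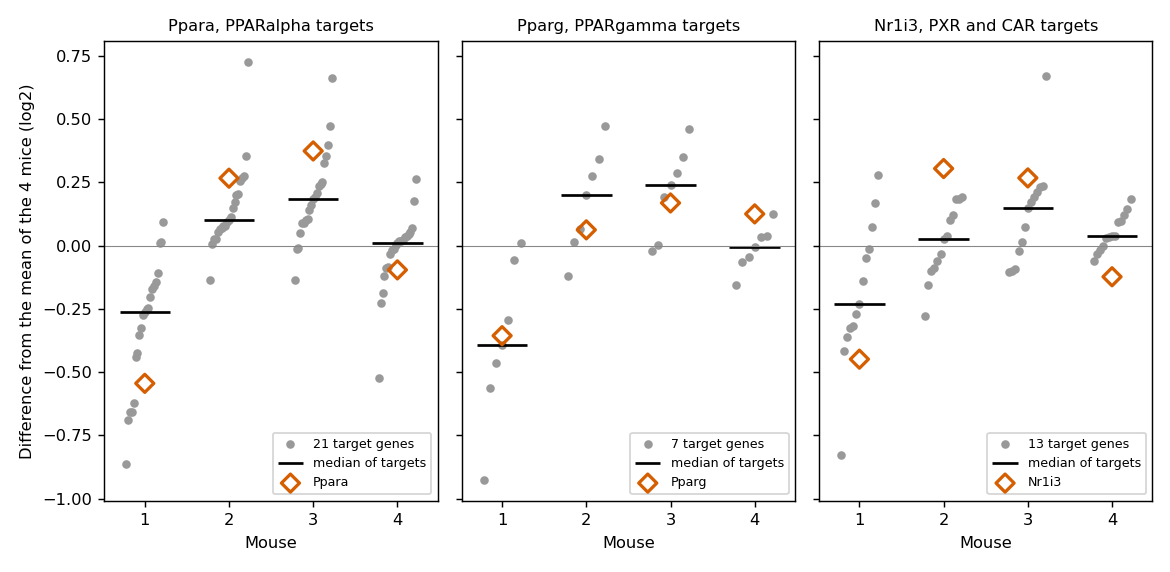
Ppara, Pparg and Nr1i3 (open diamonds) and the genes listed as targets of PPARalpha, PPARgamma and of PXR and CAR (grey points, 21, 7 and 13 genes above background). The vertical axis gives each value minus its gene's average over the 4 mice (log2). Black lines are medians of the targets, which are lowest in mouse 1 in all 3 panels.

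The sterol and bile acid receptors showed a narrower range. Nr1h3 (LXR alpha), the oxysterol receptor that promotes cholesterol excretion and lipogenesis, was at 8.65, 8.91, 8.98 and 9.02 (mean 8.89 ± 0.17, SD, n = 4). Nr1h4 (FXR), the bile acid receptor, was at 9.41, 9.63, 9.74 and 9.77 (mean 9.64 ± 0.17, SD, n = 4). In both, the lowest value was that of mouse 1, with differences of -0.32 and -0.31 from the other mice. About 30.8% and 35.0% of the genes of like level were at or below these differences. Nr0b2 (SHP), a corepressor without a DNA-binding domain that FXR induces, was at 6.87, 6.77, 6.99 and 6.98, with a range of 1.16-fold.

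All 13 LXR targets were above background, and only Cyp7a1, the rate-limiting enzyme of bile acid synthesis, exceeded the 1.5-fold range, with a range of 1.60-fold from mouse 1 to mouse 3, the highest at 9.67. It no longer did so after quantile normalization. Abca1, the cholesterol exporter, was at 8.93, 8.90, 9.06 and 9.18. Of 11 measured FXR targets 10 were above background, and 1, the carboxylesterase Ces1g, exceeded the range, which it did not after quantile normalization. The bile salt pump Abcb11 was among the steadiest, at 11.13, 11.18, 11.29 and 11.28.

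All 6 retinoid receptors were above background. Rxra, the main partner of heterodimers in hepatocytes, was at 8.83, 8.83, 9.05 and 8.99 (mean 8.92 ± 0.11, SD, n = 4). Rxrb was at 6.40, 6.71, 6.82 and 6.98, so that mouse 1 was lowest and mouse 4 highest (mean 6.73 ± 0.24, SD, n = 4). Rxrg was nearest to the background of all receptors called above it. Its values of 5.73, 5.73, 5.96 and 5.64 exceeded the limit by 0.33 on average and by 0.17 at the least, and 2.03% of the Olfr probe sets had a mean as high. Of the retinoic acid receptors, Rara was at 7.12 ± 0.09, Rarb at 6.67 ± 0.09 and Rarg at 6.42 ± 0.15 (SD, n = 4 each). Rarg was highest in mouse 1 and lowest in mouse 3. Among 8 retinoic acid targets above background, Lrat, which esterifies retinol and is a marker of stellate cells, exceeded the 1.5-fold range with 8.29, 9.23, 9.33 and 8.84. The retinoic acid hydroxylase Cyp26a1 varied little, from 6.97 to 7.11.

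Both thyroid hormone receptors were above background. Thrb, the main form of hepatocytes, was at 7.71, 7.93, 8.07 and 8.03 (mean 7.93 ± 0.16, SD, n = 4), lowest in mouse 1. Thra was at 7.84, 7.55, 7.88 and 7.70 (mean 7.74 ± 0.15, SD, n = 4), lowest in mouse 2. Of 8 measured target genes, all above background, Dio1 exceeded the 1.5-fold range. Dio1 is the deiodinase that activates thyroid hormone in the liver, and it was at 8.39, 9.66, 9.79 and 9.06. Thrsp, a lipogenic target, was at 12.08, 12.26, 12.28 and 12.16.

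Vdr, the vitamin D receptor, remained below the limit with 5.13, 4.73, 4.76 and 5.17, and 12.6% of the Olfr probe sets had a mean at least as high. None of 3 measured vitamin D targets was above background on all arrays, and Cyp24a1 was not among those measured. Of the 3, S100g, at 5.68, 5.66, 5.67 and 5.22, exceeded the limit in mice 1 to 3, and Cyp27b1 in mouse 3 only. Rora, an orphan receptor that activates clock genes, was at 8.81, 8.73, 8.72 and 8.99, highest in mouse 4 (mean 8.81 ± 0.13, SD, n = 4). Its target Arntl, the core clock activator, was at 7.49, 7.40, 7.41 and 7.62, also highest in mouse 4. After quantile normalization Rora was at 8.95, 8.71, 8.65 and 8.94, highest in mouse 1 and next highest in mouse 4. Of 13 clock genes above background, Nr1d1 and Nfil3 exceeded the 1.5-fold range. Nr1d1 encodes the repressor REV-ERB alpha, a nuclear receptor outside the list of 38, and was at 7.95, 8.64, 8.94 and 8.45. Of 8 measured receptors outside the list, only Nr1d1 and Nr1d2 were above background, and Nr1d2 had a range of 1.08-fold.

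Hnf4a, the master regulator of hepatocyte identity, was 5.04 above the Olfr limit on average, at 10.19, 10.60, 10.62 and 10.48 (mean 10.47 ± 0.20, SD, n = 4). Its paralog Hnf4g, known from intestine, had a mean of 3.90, and 43.7% of the Olfr probe sets had a mean at least as high. All 17 measured HNF4alpha targets were above background, and 1, Apoa4, exceeded the 1.5-fold range. Apoc3, an inhibitor of lipoprotein clearance, was at 13.44, 13.60, 13.60 and 13.52.

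Of the COUP-TF orphan receptors, Nr2f2 was above background and steady, at 7.98, 8.08, 8.04 and 7.92 (mean 8.01 ± 0.07, SD, n = 4). Nr2f1 was not above background, at 5.48, 5.30, 5.25 and 5.13, close to the limit in each mouse. Nr2f6 was at 7.07, 6.60, 6.79 and 6.71, with the highest value in mouse 1 (difference 0.38 from the other mice) and the lowest in mouse 2. In its expression class, 95.5% of the genes were at or below this difference. Of the testicular receptors, Nr2c1 was lowest in mouse 1, at 7.04, 7.52, 7.52 and 7.42, whereas Nr2c2 varied by 1.07-fold around 7.17 ± 0.04 (SD, n = 4).

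In the deposited values, Esr1 and Nr3c1 had the smallest SDs of the receptors above background. Esr1, estrogen receptor alpha, was at 7.57, 7.61, 7.61 and 7.55, with an SD of 0.032, the smallest of the 30, and 98.9% of all genes above background had an SD at least as large. Nr3c1, the glucocorticoid receptor, was at 7.96, 8.01, 8.05 and 7.98, with an SD of 0.039. With quantile normalization their SDs were 0.067 and 0.061, and Nr1i2 (0.059) and Nr5a2 (0.060) had smaller ones, so that neither the size nor the order of these SDs held under this scaling. Nr3c2, the mineralocorticoid receptor, was at 6.00, 6.14, 6.30 and 6.40 (mean 6.21 ± 0.18, SD, n = 4).

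The spread of the glucocorticoid receptor targets is not set against that of Nr3c1. Of all genes above background, 98.1% had an SD at least as large as Nr3c1. Of 16 measured targets 15 were above background, and 5 exceeded the 1.5-fold range. Over all genes above background 12.8% did so. Among the 5 were Lcn2 and Mt2, which had the largest SDs of the list. Lcn2, an iron-sequestering protein that is also induced by inflammation, spanned 5.80-fold, with 6.80, 9.31, 9.34 and 8.33. Mt2, a metallothionein, was at 6.55, 7.63, 7.89 and 7.42. Both were lowest in mouse 1. Fkbp5, a chaperone that glucocorticoids induce, was at 6.31, 6.52, 6.52 and 6.48, a range of 1.16-fold.

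Esrra, an orphan receptor that activates mitochondrial genes, was highest in mouse 1, at 7.26, 7.10, 6.93 and 7.08 (mean 7.09 ± 0.13, SD, n = 4). Its listed targets were all lower in mouse 1, 13 of 13, with a median difference of -0.23. After quantile normalization 8 of 13 were lower, with a median difference of -0.053, beside 53.4% of all genes. Citrate synthase (Cs) was at 9.03, 9.73, 9.82 and 9.53, and cytochrome c (Cycs) varied by 1.07-fold. Esrrg, which acts on similar genes, was at 6.08, 6.08, 5.88 and 6.25, a mean of 6.07 ± 0.15 (SD, n = 4). Esrrb, known from stem cells, had a mean of 5.20, and 7.83% of the Olfr probe sets had a mean at least as high.

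The NR4A receptors are immediate early genes that are induced within minutes to hours by stress and hormones, and none was above background on all arrays. Nr4a1 was at 5.45, 5.57, 5.38 and 5.14, Nr4a2 at 5.43, 5.48, 5.43 and 5.35, and Nr4a3 at 4.32, 4.44, 4.18 and 4.37. Of 16 other immediate early genes 12 were above background. Fos, which was not, exceeded the limit on 3 arrays, and 3 genes, including Dusp1 and Klf6, had more than a 1.5-fold range.

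Nr5a2 (LRH-1), an orphan receptor of hepatocytes and of the exocrine pancreas, was at 8.31, 8.40, 8.38 and 8.47, with an SD of 0.069. Transcripts of pancreatic acinar cells differed widely between these samples. Of 18 measured acinar markers 14 were above background, 13 exceeded the 1.5-fold range, with the highest median level in mice 1 and 4. The acinar transcription factor Ptf1a was not above background, whereas Rbpjl, a further acinar transcription factor, was, at 5.92, 5.67, 5.78 and 5.73. Cpa1, a pancreatic protease, was at 9.02, 6.31, 6.69 and 8.49. Cel, a lipase that is both an acinar marker and a target of Nr5a2, was at 7.70, 5.58, 5.66 and 7.51. In the deposited values Nr5a2 did not show this order and was lowest in mouse 1. After quantile normalization Nr5a2 was at 8.43, 8.39, 8.31 and 8.44, highest in mice 1 and 4. Of 8 measured Nr5a2 targets, all above background, Cel and Cyp7a1 exceeded the range, and 1 of them did so after quantile normalization. The part of acinar transcripts in the values of Nr5a2 was not tested.

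Nr5a1 (SF-1), known from adrenal gland and gonads, exceeded the limit on all arrays with 6.06, 6.07, 6.24 and 5.96. Its margin was 0.65 on average, and 0.966% of the Olfr probe sets had a mean at least as high. Nr6a1, known from germ cells, was at 6.80, 6.57, 6.51 and 6.65 (mean 6.63 ± 0.13, SD, n = 4). With the 99th percentile of the Olfr probe sets as the limit, Rxrg, Nr3c2, Esrrg and Nr5a1 were not above background. With the 90th percentile, Nr2f1, Esrrb, Nr4a1 and Nr4a2 were.

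**Figure D4:**
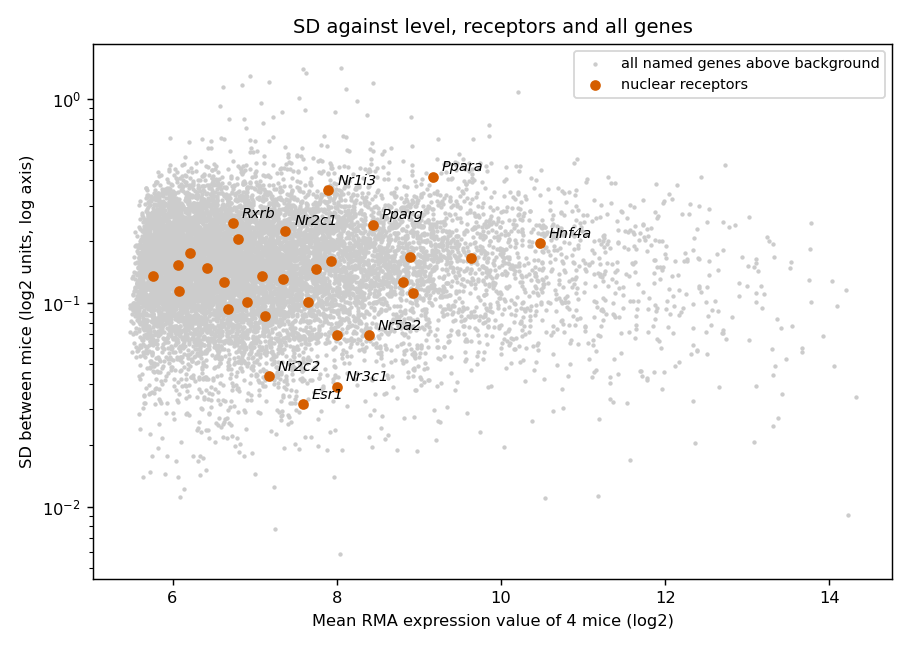
SD between the 4 mice (log2 units, log axis) against the mean RMA expression value (log2) for the 30 nuclear receptors above background (orange) and all 12036 named genes above background (grey). Ppara (SD 0.41) and Nr1i3 (SD 0.36) lie near the upper edge and Esr1 (SD 0.032) and Nr3c1 (SD 0.039) near the lower edge of the grey points.

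By mouse, 16 of 30 receptors (53.3%) had their lowest value in mouse 1, as did 46.6% of all genes above background. The highest value fell in mouse 3 for 12 receptors (40.0%), as for 31.7% of all genes. For the receptors, the median difference to the remaining mice was -0.081 in mouse 1, 0.015 in mouse 2, 0.097 in mouse 3 and -0.00075 in mouse 4. After quantile normalization these values were -0.044, -0.0032, 0.013 and -0.034, beside -0.020, 0.011, 0.014 and 0.0017 over all genes above background. The median absolute difference over the receptors was 0.099 to 0.13 for pairs among mice 2 to 4 and 0.17 to 0.22 for pairs with mouse 1. Over all genes above background it was 0.11 to 0.14 and 0.19 to 0.23, so the wider gap to mouse 1 was not particular to the receptors.

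The coregulators that nuclear receptors recruit were measured as well. Of 17 coactivators 16 were above background and none exceeded the 1.5-fold range, and the same held for 10 of 11 measured corepressors. Ncoa7 and Nr0b1 were not above background. All 16 coactivators were lower in mouse 1 than in the other mice, with a median difference of -0.24, which was 13 of 16 and -0.16 after quantile normalization. Over all genes these shares were 63.0% and 53.4%. With arrays centred on their median, 1 coactivator and 3 corepressors exceeded the range, as did 16.1% of all genes above background.

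The confidence intervals of a one-group limma fit over the 12036 genes, which moderates each variance towards that of all genes, extended from the mean by 0.15 for Esr1 to 0.29 for Ppara on either side. For Ppara the 95% confidence interval was 8.88 to 9.46 and for Nr1i3 7.64 to 8.16. With 4 arrays, precision is limited by their number.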

How the data were processed

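Liver RNA (150 ng, RNA integrity number above 8) of 4 mice, 1 group, was hybridized to 1 array each. The authors deposited log2 expression values, computed by RMA. The submitters' processing notes name Affymetrix Expression Console. RMA corrects background, quantile-normalizes arrays and summarizes probes. Which arrays were normalized together and the genome build are not given in the sources used here. Because RMA aligns the arrays, the spread between mice also depends on it.

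Of 35556 probe sets, 21789 had 1 gene symbol in the platform annotation, 1621 had several and 12146 were unnamed here. Symbols were updated through gene identifiers with the RefSeq table of GRCm38.p6. The probe set with the highest mean was used for each gene. Means, SDs and ranges were computed with pandas 2.3.3 in Python 3.11.15, and confidence intervals with limma 3.58.1 in R 4.3.3. The steps were tested on simulated data. Receptors, target lists and markers were chosen with earlier results of these data known. All receptors are named, and of the coregulators those not above background. Of each target or marker list at most the 2 genes with the largest SD and the 1 with the smallest are named, plus preset classical targets such as Cyp7a1 and Pdk4. Cd36, Gstm3, Adipoq, Lep, Plin1, Ptf1a, S100g and Cyp27b1 were named after their values were seen. All columns belonged to a sample.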

Additional observations from a re-analysis of the deposited data

Results flagged for a closer look

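None of the 37 measured receptors had a single mouse far apart from the other 3, judged by the gap to its neighbour relative to the whole range. Among 70 further named genes, 4 had such a value. Set against the average of the remaining mice, this mouse differed by -0.45 for the LXR target Abcg1, -0.53 for the endothelial marker Fcgr2b and -0.86 for the macrophage marker Mpeg1, each in mouse 1, and 0.34 for the biliary marker Sox9 in mouse 3. Chance gives such a value in about 1 of 20 genes (5.72% of all genes above background had one, 62.6% of them in mouse 1).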

How the results depend on the processing

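The count of receptors above background was 26 to 34 under all alternatives run, within 1.5 times the reported 30. With the 99th percentile as the limit it was 26, beside 42.9% of all named genes. With the 90th percentile it was 34, beside 68.9%. The count of receptors with more than a 1.5-fold range between mice was 2 with the other background limits, with no filter on low values and with quantile normalization. Using the mean of all probe sets could change no receptor, since each had 1. The count was 4 with arrays centred on their median, where Pparg and Rxrb joined Ppara and Nr1i3, and 0 with a 2-fold limit. Over all genes above background the share was 16.1% with centred arrays, 10.5% with quantile normalization and 1.13% with the 2-fold limit. With 1 mouse left out the count of receptors was 0 to 2, and 0 only without mouse 1. The median SD of the receptors was 0.095 without mouse 1 and 0.15 without mouse 2. Of 75 list counts, 12 moved by more than 1.5 times. With quantile normalization the median difference in mouse 1 moved from -0.22 to -0.098 for FXR targets, from -0.16 to -0.026 for LXR targets and from -0.23 to -0.053 for ERR targets, and that of Nr5a2 targets turned from -0.14 to 0.025. The cause was not tested. Signal over background limits the receptors near the limit, such as Rxrg. No paired analysis was possible because only 1 group was analysed.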
